A study of Caenorhabditis elegans with 20 samples.

Results

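The genes described here are the aspartic and cysteine proteases of Caenorhabditis elegans that carry the names asp, cpr, cpl or cpz followed by a number, most of which are lysosomal or intestinal enzymes. Of the 46284 genes listed, 28 carried such a name, and 23 of them had an FPKM (fragments mapped to a gene, scaled to the length of its transcript and to the mapped fragments of the library) of 0.1 or more in 4 samples or more and were kept. They comprised 12 aspartic proteases (asp) and 11 cysteine proteases, of which 8 were cathepsin B-like (cpr), 1 cathepsin L-like (*cpl-1*) and 2 cathepsin Z-like (*cpz-1* and *cpz-2*). RNA came from whole worms of 5 strains with 4 replicates each, harvested on day 1 of adulthood after growth at 20°C on OP50 bacteria without further treatment. The strains, by the study's account all of Bristol N2 descent and outcrossed, were wild-type, *ivd-1(tm6784)*, which affects isovaleryl-CoA dehydrogenase in leucine breakdown, *bcat-1(hh58)*, in which a premature stop codon was edited into the branched-chain amino acid transferase gene, *hecd-1(tm2371)*, which affects a HECT-type ubiquitin ligase, and a double mutant that carries both *ivd-1(tm6784)* and *bcat-1(hh58)*. Each mutant genotype was 1 strain with 1 allele per gene, the alleles act in every tissue, and the harvest of strains with delayed development was shifted by the study so that all worms were egg-bearing adults.

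Aspartic proteases of this kind resemble cathepsin D and work at the acidic pH of the lysosome, while the cysteine proteases resemble the cathepsins B, L and Z and use a cysteine in their active site. In the worm both kinds are made in large amounts by the intestine, where they digest bacterial food in the gut lumen and proteins taken up or delivered to lysosomes. Lysosomal breakdown by these enzymes runs beside the proteasome as the other main route of protein degradation, and it also serves yolk processing, molting and necrotic cell death.

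Per library the FPKM added up to 1004160 at the lowest and 1136130 at the highest. The depth of the samples relative to each other, estimated only from the ratios of low FPKM values between samples, lay between 0.888 and 1.08. Read numbers are not part of the table, and counting error can therefore not be stated. Strains were compared on log2(FPKM + 0.5) with limma in a fit of all 20 samples, over 15957 genes that reached 0.5 FPKM in 4 samples or more, and the threshold for a call was 0.05 on the p-value adjusted by Benjamini and Hochberg. Fold changes are on this scale and understate those of low genes. Of the 23 proteases, 21 were in the test, and *asp-9* and *cpr-2* were too low. The values of *asp-5* are listed at 0 in 6 samples and between 367 and 869 in the other 14, which can mark failed estimates, so it is kept out of sums. It stays among the 21 in the counts, shares and medians, and its fold change is given only where its call is discussed.

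The proteases were abundant transcripts. Without *asp-5* the other 22 together held 0.859% ± 0.0311 (SD, n = 4) of the summed FPKM in wild-type, 0.952% ± 0.0205 in *ivd-1*, 1.08% ± 0.0595 in *bcat-1*, 1.01% ± 0.0420 in the double mutant and 0.721% ± 0.0156 in *hecd-1*. As FPKM the sums ran from 9023 to 10114 in wild-type, 10269.8 to 10932 in *ivd-1*, 10493 to 12864 in *bcat-1*, 9610.0 to 10949 in the double mutant and 7471 to 7871 in *hecd-1*. All 4 *hecd-1* samples thus lay below every sample of the other strains, and those of *ivd-1* and *bcat-1* lay above all wild-type samples. The double mutant overlapped wild-type in summed FPKM. As a share of the summed FPKM, its samples (0.949% to 1.04%) also lay above all those of wild-type (0.837% to 0.904%). The genes *asp-1*, *cpl-1*, *asp-6*, *cpr-6*, *asp-3* and *cpr-9* made up 72.3% to 79.5% of the sum in every sample.

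**Figure D1:**
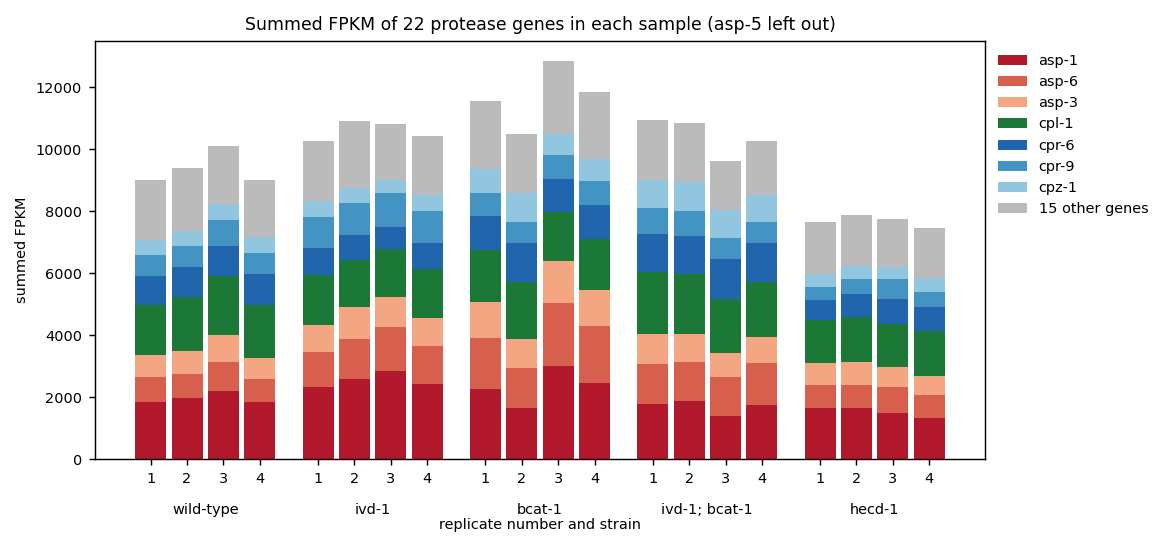
Stacked bars of summed FPKM (y axis, from 0) of 22 proteases in each of the 20 samples, grouped by strain with the replicate number below, with 7 genes in color and the 15 others in grey. The *hecd-1* bars are the lowest, and the *bcat-1* bars spread most, from 10493 to 12864.

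The families contributed unequally to these differences. In *ivd-1* and *bcat-1* the mean sum of the aspartic proteases, the largest family, was furthest above wild-type in absolute FPKM, at 5749 and 6509 against 4547. The cathepsin Z-like pair, at a lower level, was also above wild-type in *bcat-1*, at 864 against 552. In the double mutant the aspartic (5032) and cathepsin Z-like genes (956 against 552) were above their wild-type means. So were the cathepsin L-like (1858 against 1734) and, by little, the cathepsin B-like genes (2579 against 2557). By sample only the cathepsin Z-like sums did not overlap those of wild-type in FPKM. In *hecd-1* the aspartic (3895), cathepsin B-like (1911 against 2557), cathepsin L-like (1422 against 1734) and cathepsin Z-like genes (454 against 552) were all below their wild-type means. By sample the summed FPKM of the aspartic proteases without *asp-5* was 4258 to 5043 in wild-type, 5316 to 6153 in *ivd-1*, 5126 to 7703 in *bcat-1*, 4515 to 5285 in the double mutant and 3564 to 4111 in *hecd-1*. The cathepsin B-like genes summed to 2520.0 to 2588, 2614 to 2824, 2545 to 2767, 2445 to 2691 and 1709.8 to 2085 in the same order of strains. In FPKM the 4 *ivd-1* sums lay above and the 4 *hecd-1* sums below all wild-type samples, and *bcat-1* and the double mutant overlapped wild-type. As shares of the summed FPKM, *ivd-1* (0.236% to 0.249%) and *bcat-1* (0.235% to 0.249%) overlapped wild-type (0.231% to 0.237%). By share the double mutant (0.242% to 0.258%) lay above wild-type and *hecd-1* (0.157% to 0.198%) below it. The cathepsin Z-like pair summed to 522 to 577 in wild-type and 482 to 599 in *ivd-1*, against 791 to 985 in *bcat-1* and 924 to 992 in the double mutant, and 442 to 467 in *hecd-1*.

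In *ivd-1* the proteases went both ways against wild-type. Of the 21 tested, 6 were higher (*asp-3*, *asp-6*, *asp-12*, *cpr-3*, *cpr-9* and *cpz-2*) and 4 lower (*asp-8*, *asp-13*, *cpr-4* and *cpr-6*), or 47.6%, where 22.8% of all tested genes were called (19.9% higher and 2.88% lower). The levels of 12 did not overlap with wild-type, beside 34.0% of all genes. The median log2 fold change of the 21 was 0.07 against 0.11 over all genes. Without *asp-5*, whose values listed at 0 pull it down, it lies between 0.07 (*asp-2*) and 0.19 (*asp-14*). With median-of-ratios scaling the split was 5 higher and 5 lower.

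In *bcat-1* most of the changes were upward. Of the 21, 10 were higher (*asp-3*, *asp-4*, *asp-6*, *asp-12*, *asp-14*, *cpr-1*, *cpr-3*, *cpr-6*, *cpz-1* and *cpz-2*) and 2 lower (*cpr-5* and *cpr-8*), or 57.1%, where 44.2% of all genes were called (33.9% higher and 10.3% lower). The levels of 10 did not overlap with wild-type, beside 38.2% of all genes. The median log2 fold change was 0.23 against 0.17 over all genes. Median-of-ratios scaling gave 9 higher and 5 lower, and quantile normalization 11 higher and 4 lower.

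In the double mutant 6 proteases were higher than in wild-type (*asp-4*, *asp-6*, *asp-14*, *cpr-1*, *cpr-6* and *cpz-1*) and 6 lower (*asp-2*, *asp-8*, *asp-13*, *cpr-4*, *cpr-5* and *cpr-8*). These are 57.1% of the 21, beside 38.3% of all genes (26.4% higher and 11.9% lower). The levels of 12 did not overlap with wild-type, beside 38% of all genes. The median log2 fold change was 0.10, as over all genes, and without *asp-5* it lies between 0.10 (*cpl-1*) and 0.23 (*asp-3*). Every comparison with wild-type uses the same 4 wild-type samples.

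In *hecd-1* the direction was mostly downward. Of the 21, 8 were lower than in wild-type (*asp-8*, *asp-14*, *asp-17*, *cpl-1*, *cpr-3*, *cpr-6*, *cpr-9* and *cpz-1*) and *asp-12* alone was higher, or 42.9%, where 21.1% of all genes were called (14.0% higher and 7.15% lower). The levels of 12 did not overlap with wild-type, all of them lower, beside 29.1% of all genes. The median log2 fold change was -0.28 against 0.08 over all genes. Without wild-type replicate 3, or without *hecd-1(tm2371)* replicate 4, 5 proteases were called, all of them lower, and median-of-ratios scaling gave 0 higher and 10 lower. The call of *asp-12* was lost in 15 of the 20 fits without a sample and under 4 other alternatives.

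Between *ivd-1* and *hecd-1*, the mutant of leucine breakdown and that of the ubiquitin ligase, 15 of the 21 differed, or 71.4%, where 49.9% of all genes did. Of these 13 were higher in *ivd-1* (27.3% of all genes) and 2 lower (22.6% of all genes), with a median log2 fold change of 0.49 against 0.12 over all genes. The levels of 14 did not overlap, beside 47.4% of all genes. One of the lower calls was *asp-5*, which rests on its values listed at 0: with them taken as missing, an alternative chosen after seeing the data, its log2 fold change was 0.50. The other was *asp-13*.

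Set against *ivd-1*, the double mutant had 6 proteases higher (*asp-4*, *asp-14*, *cpl-1*, *cpr-1*, *cpr-6* and *cpz-1*) and 8 lower (*asp-1*, *asp-2*, *asp-12*, *asp-17*, *cpr-3*, *cpr-5*, *cpr-8* and *cpr-9*), or 66.7%, where 44.6% of all genes were called. The levels of 14 did not overlap, beside 42.6% of all genes. Against *bcat-1* it had none higher and 10 lower (*asp-1*, *asp-2*, *asp-3*, *asp-6*, *asp-12*, *cpr-3*, *cpr-4*, *cpr-5*, *cpr-8* and *cpz-2*), or 47.6%, where 23.4% of all genes were called (3.93% higher and 19.5% lower). The levels of 1 protease, *asp-12*, did not overlap, beside 12.8% of all genes, and this count of calls was the least stable. A limma fit of these 2 strains alone called 0 of the 21, with 12 at an unadjusted p under 0.05, and leaving out *bcat-1(hh58)* replicate 3 or double-mutant replicate 3 also gave 0, each with 13 at an unadjusted p under 0.05. Median-of-ratios scaling gave 3 higher and 9 lower, and the fit without *bcat-1(hh58)* replicate 2 gave 3 higher and 12 lower.

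**Figure D2:**
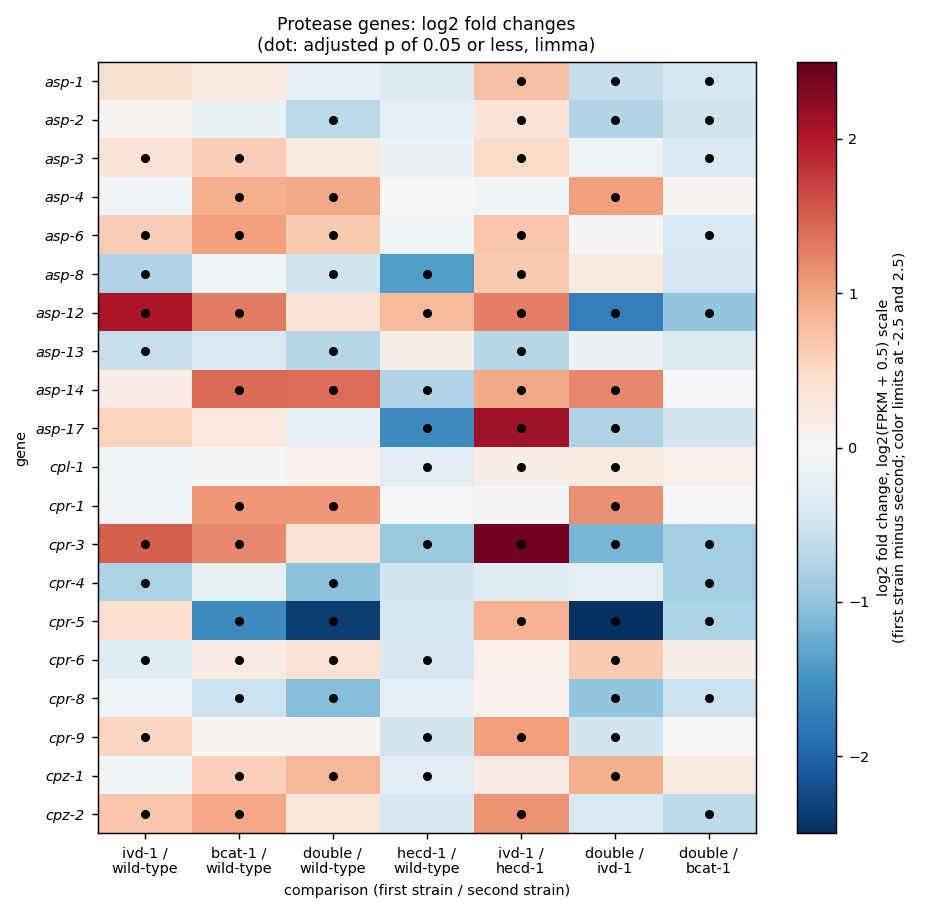
Log2 fold changes on the log2(FPKM + 0.5) scale (color, first strain minus second) of 20 proteases (rows) in 7 comparisons (columns), with a dot where the adjusted p is 0.05 or less. Red cells for *asp-4*, *asp-14*, *cpr-1* and *cpz-1* stand in the *bcat-1* and double-mutant columns, and the darkest blue cells belong to *cpr-5*.

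Among the aspartic proteases, *asp-1*, an intestinal lysosomal enzyme, had the highest level. Its FPKM in replicates 1 to 4 was 1846, 1982, 2191 and 1839 in wild-type, 2347, 2575, 2852 and 2442 in *ivd-1*, 2263, 1668, 3015 and 2468 in *bcat-1*, 1797, 1871, 1398 and 1741 in the double mutant and 1643, 1645, 1508 and 1342 in *hecd-1*. All *ivd-1* samples stood above the wild-type samples and all *hecd-1* samples below them, while *bcat-1* covered the whole wild-type range. Against wild-type none of the 4 mutants passed the threshold, with log2 fold changes of 0.38 in *ivd-1* (adjusted p = 0.0537), 0.23 in *bcat-1*, -0.21 in the double mutant and -0.36 in *hecd-1* (adjusted p = 0.0708). The level was higher in *ivd-1* than in *hecd-1* (log2 fold change 0.74 ± 0.14 SE, adjusted p = 4.36e-04) and lower in the double mutant than in *ivd-1* (-0.59 ± 0.14, adjusted p = 0.00290), and in both comparisons the levels did not overlap.

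The cathepsin D-like genes *asp-3* and *asp-4*, which act in necrotic death of neurons, lie on the X chromosome. The FPKM of *asp-3* was 701, 745, 860.1 and 673 in wild-type, 865, 1024, 966 and 915 in *ivd-1*, 1171, 926, 1335 and 1138 in *bcat-1*, 954, 899, 791 and 851 in the double mutant and 711, 719.6, 647 and 610.1 in *hecd-1*. Every *ivd-1* and *bcat-1* sample lay above the wild-type samples, and the double mutant overlapped them. Both single mutants were called higher, *ivd-1* (log2 fold change 0.34 ± 0.10 SE, adjusted p = 0.0189) and *bcat-1* (0.61 ± 0.10, adjusted p = 7.20e-05), while it was not called in the double mutant (0.23 ± 0.10, adjusted p = 0.0730). The call in *ivd-1* was lost under median-of-ratios scaling (adjusted p = 0.0519) and in 3 fits without a sample.

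The FPKM of *asp-4* was 234, 242, 254 and 236 in wild-type and 232, 239, 216 and 226 in *ivd-1*, against 426, 462, 465 and 455 in *bcat-1* and 438, 429.5, 529 and 475 in the double mutant, and 205, 229, 284 and 245 in *hecd-1*. The strains fell into 2 separate levels, with all samples that carry *bcat-1(hh58)* above all others. The gene was higher in *bcat-1* (log2 fold change 0.90 ± 0.08 SE, adjusted p = 1.50e-07) and in the double mutant (0.95 ± 0.08, adjusted p = 1.35e-07). In *ivd-1* the log2 fold change against wild-type was -0.08, with a 95% interval of -0.25 to 0.08, and the double mutant differed from *bcat-1* by 0.05, with an interval of -0.12 to 0.21. An exon of *asp-4* overlaps one of *R12H7.4* on the opposite strand by 33 bases in the WBcel235 annotation, and whether the authors' counting used strand is not stated.

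The genes *asp-6*, *asp-12* and *asp-5* stand side by side on chromosome V (WBcel235 8267511 to 8268937, 8269210 to 8272056 and 8272385 to 8274044), 273 and 329 bases apart, with *asp-6* on the minus strand and the other 2 on the plus strand. The FPKM of *asp-6* was 812, 778, 947 and 765 in wild-type, 1122, 1299, 1425 and 1202 in *ivd-1*, 1635, 1276, 2042 and 1843 in *bcat-1*, 1279, 1260.5, 1256 and 1370.4 in the double mutant and 766, 767, 824 and 735 in *hecd-1*. The strains *ivd-1*, *bcat-1* and the double mutant all lay above the wild-type samples and the *hecd-1* samples overlapped them. It was higher in all 3, with log2 fold changes of 0.61 ± 0.11 (adjusted p = 7.05e-04), 1.02 ± 0.11 (adjusted p = 1.24e-06) and 0.65 ± 0.11 (adjusted p = 2.29e-04), in the order given.

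Its neighbour *asp-12* was far lower in level and changed most in *ivd-1*. The FPKM was 10.5, 3.69, 6.16 and 3.71 in wild-type, 24.5, 26.2, 25.5 and 21.5 in *ivd-1*, 15.4, 9.25, 17.1 and 17.3 in *bcat-1*, 7.29, 6.94, 5.89 and 8.67 in the double mutant and 14.2, 10.9, 6.74 and 9.14 in *hecd-1*. The *ivd-1* samples stood above all others. The gene was higher in *ivd-1* (log2 fold change 2.05 ± 0.27 SE, adjusted p = 7.54e-05), the largest upward change of a protease against wild-type, and in *bcat-1* (1.31 ± 0.27, adjusted p = 8.36e-04), while the double mutant was at 0.35 ± 0.27 (adjusted p = 0.338). The third gene of the row, *asp-5*, is listed at 415, 427, 463 and 367 in wild-type, 0, 0, 627 and 0 in *ivd-1*, 869, 639, 0 and 835 in *bcat-1*, 622, 0, 567 and 0 in the double mutant and 484, 467, 420.0 and 410.4 in *hecd-1*. Where it was not listed at 0, the *ivd-1*, *bcat-1* and double-mutant values were above all those of wild-type and *hecd-1*.

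On the X chromosome too, *asp-14* was high in the strains with *bcat-1(hh58)*. Its FPKM was 88.1, 121.5, 104.4 and 90.5 in wild-type, 110.5, 134, 98 and 116 in *ivd-1*, 321, 290.1, 231 and 238 in *bcat-1*, 301, 317, 209 and 244 in the double mutant and 85.4, 82.6, 36.8 and 46.7 in *hecd-1*. Every *bcat-1* and double-mutant sample was above every other, and every *hecd-1* sample below the wild-type samples. It was 2.66-fold higher in *bcat-1* (log2 fold change 1.41 ± 0.22 SE, adjusted p = 5.46e-05) and 2.62-fold higher in the double mutant (1.39 ± 0.22, adjusted p = 1.36e-04), and lower in *hecd-1* (-0.76 ± 0.22, adjusted p = 0.0228). The last call was lost without either of 2 wild-type or 2 *hecd-1* samples and in a fit of these 2 strains alone.

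A second set of aspartic proteases was lower in *ivd-1*. The FPKM of *asp-13* was 193, 204, 197 and 217 in wild-type, 155, 152, 102 and 144 in *ivd-1*, 181, 162, 129 and 157 in *bcat-1*, 158, 135, 89.2 and 122.019 in the double mutant and 250.3, 229.7, 186 and 232 in *hecd-1*. All samples of *ivd-1*, *bcat-1* and the double mutant were below the wild-type samples. It was lower in *ivd-1* (log2 fold change -0.57 ± 0.16 SE, adjusted p = 0.0140) and in the double mutant (-0.71 ± 0.16, adjusted p = 0.00185), and in *bcat-1* it missed the threshold (-0.37 ± 0.16, adjusted p = 0.0622).

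The FPKM of *asp-8* was 11.5, 11.2, 12.4 and 9.58 in wild-type, 6.48, 7.82, 6.78 and 5.03 in *ivd-1*, 12, 8.81, 11 and 10.4 in *bcat-1*, 9.21, 9.13, 6.56 and 6.36 in the double mutant and 4.88, 4.33, 3.34 and 3.3 in *hecd-1*. The *hecd-1* samples were the lowest, with none above 4.88, and the *ivd-1* samples lay between them and wild-type. It was lower in *hecd-1* (log2 fold change -1.40 ± 0.15 SE, adjusted p = 1.14e-05), in *ivd-1* (-0.74 ± 0.15, adjusted p = 0.00225) and in the double mutant (-0.51 ± 0.15, adjusted p = 0.0159). The double-mutant call was lost without its replicate 3 or 4.

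The gene *asp-17*, on chromosome V near *asp-1*, was the protease that fell furthest in *hecd-1*. Its FPKM was 11.6, 13, 20.9 and 19.8 in wild-type, 19.9, 23.9, 24 and 26 in *ivd-1*, 20, 12, 24.4 and 22.5 in *bcat-1*, 17.4, 13.4, 9.63 and 15.3 in the double mutant and 4.04, 5.88, 6.52 and 3.98 in *hecd-1*. The *hecd-1* samples were separate from all others. It was 2.97-fold lower in *hecd-1* than in wild-type (log2 fold change -1.57 ± 0.24 SE, adjusted p = 2.21e-04). The genes *asp-15* and *asp-16*, which lie between *asp-17* and *asp-1*, stayed at or below an FPKM of 0.180 in every sample.

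The gene *asp-2* was at 403 to 449.6 FPKM in wild-type, 435 to 499 in *ivd-1*, 313 to 433 in *bcat-1*, 221 to 323 in the double mutant and 317 to 426 in *hecd-1*. The double mutant was lower than wild-type (log2 fold change -0.67 ± 0.12 SE, adjusted p = 3.17e-04) and than *ivd-1* (-0.74 ± 0.12, adjusted p = 2.45e-04), in both cases without overlap. An exon of *asp-2* shares 74 bases with *inx-10* on the opposite strand. The gene *asp-9* on chromosome IV stayed between 0 and 0.197 FPKM and reached 0.1 in 7 samples, which put it just inside the minimum, and *asp-7* reached it in 3 samples, with a highest FPKM of 0.203, which left it just outside. Also left out were *asp-15*, *asp-16*, *asp-18* and *asp-19*, the last listed at 0 in every sample.

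**Figure D3:**
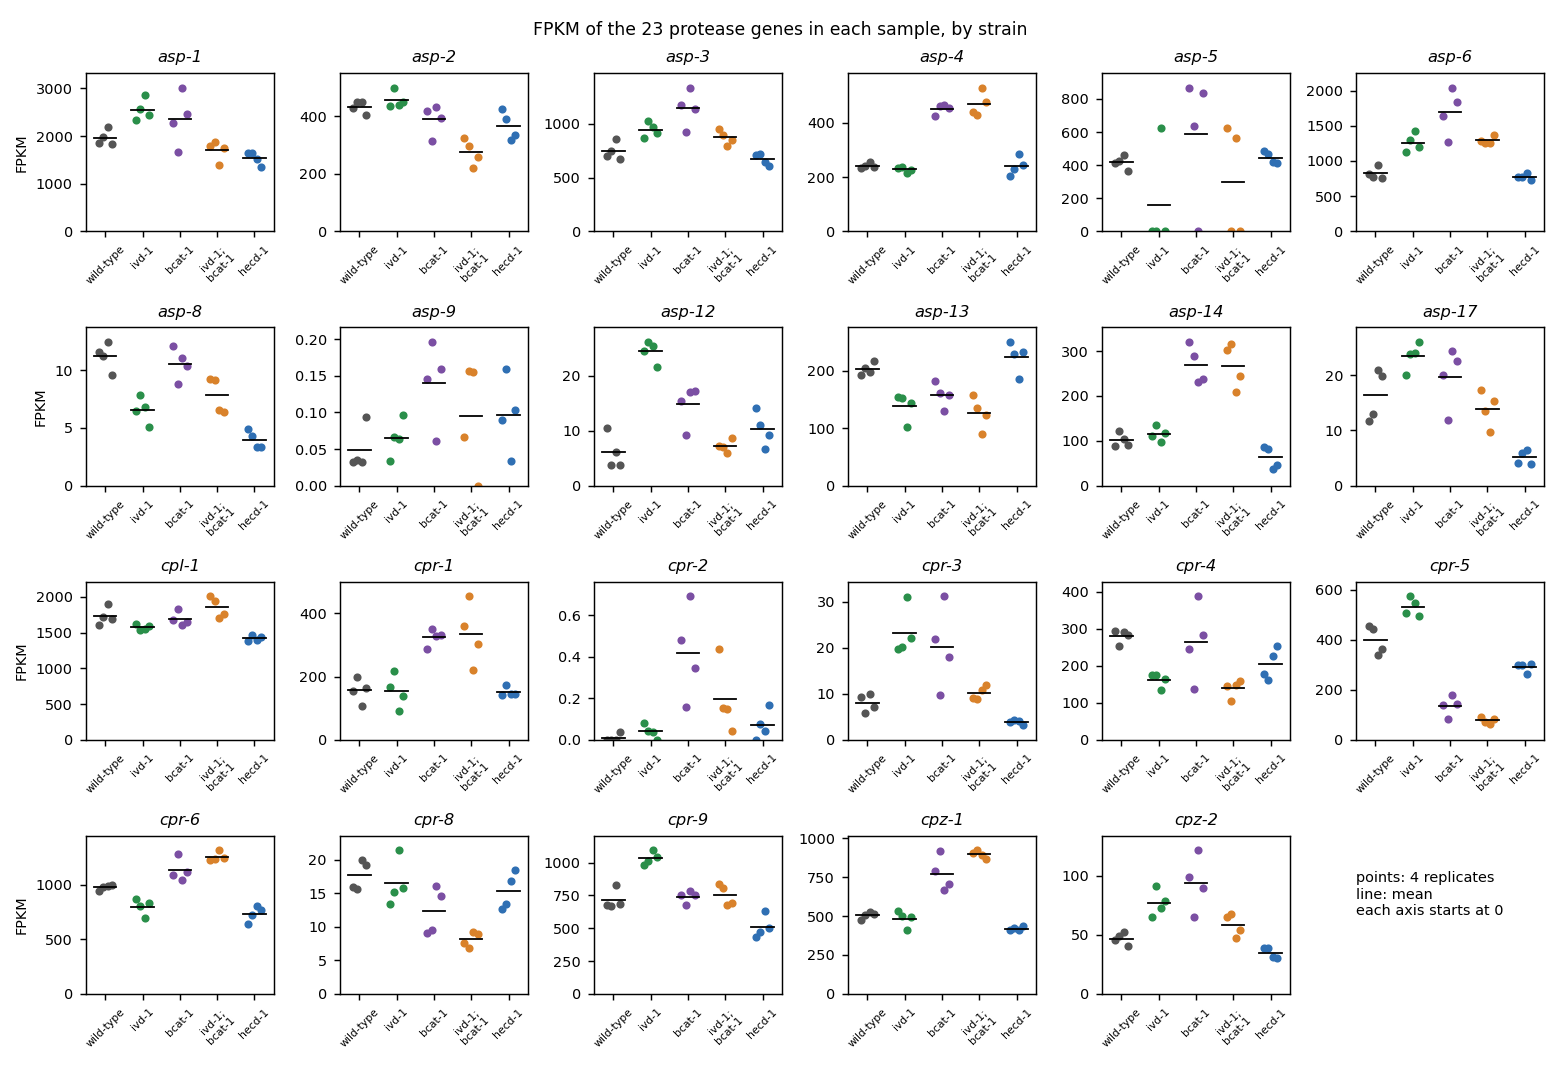
FPKM (y axes, each from 0) of the 23 proteases by strain (x axes), with a point for each of the 4 replicates and a line at their mean. In *asp-4*, *asp-14*, *cpr-1* and *cpz-1* the *bcat-1* and double-mutant points stand above the other 3 strains, in *cpr-5* below them, and *asp-5* has 6 points at 0.

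Among the cysteine proteases, *cpl-1*, the cathepsin L-like enzyme that processes yolk and is needed for embryogenesis and molting, was the most abundant. Its FPKM was 1613, 1720.0, 1906 and 1696 in wild-type, 1624, 1537, 1556 and 1589 in *ivd-1*, 1676, 1837, 1603 and 1649 in *bcat-1*, 2015, 1938, 1711 and 1767 in the double mutant and 1377, 1473, 1398 and 1441 in *hecd-1*. The *hecd-1* samples lay below all others. It was lower in *hecd-1* (log2 fold change -0.28 ± 0.06 SE, adjusted p = 0.00252), a call that was lost under quantile normalization. In *bcat-1* the log2 fold change was -0.04 with a 95% interval of -0.16 to 0.09, in *ivd-1* -0.13 with an interval of -0.26 to -0.01, and in the double mutant 0.10 with an interval of -0.02 to 0.22. The call of a higher level in *ivd-1* than in *hecd-1* (0.15 ± 0.06) was lost under several alternatives, with no direction left under quantile normalization (-0.0050).

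The cathepsin Z-like *cpz-1*, a molting enzyme on chromosome I, was at 476, 505, 525 and 513 FPKM in wild-type, 534, 499, 409 and 492 in *ivd-1*, 789, 920.5, 669 and 704 in *bcat-1*, 905, 924, 891 and 869.7 in the double mutant and 407, 423, 409.9 and 436 in *hecd-1*. All 8 samples that carry *bcat-1(hh58)* lay above the other 12. Its level was higher in *bcat-1* (log2 fold change 0.60 ± 0.08 SE, adjusted p = 1.43e-05) and in the double mutant (0.83 ± 0.08, adjusted p = 1.14e-06), and lower in *hecd-1* (-0.27 ± 0.08, adjusted p = 0.0302), a call lost under quantile normalization and in 7 fits without a sample. In *ivd-1* the log2 fold change was -0.07, with an interval of -0.24 to 0.11.

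Its relative *cpz-2* was higher in both single mutants. The FPKM was 45.3, 49.4, 52.2 and 40.8 in wild-type, 64.8, 91.1, 72.6 and 78.5 in *ivd-1*, 98.8, 64.9, 121.998 and 89.5 in *bcat-1*, 64.9, 67.5, 47.8 and 54.4 in the double mutant and 38.6, 38.7, 31.6 and 30.6 in *hecd-1*. The *ivd-1* and *bcat-1* samples were above all wild-type samples and the *hecd-1* samples below them. It was higher in *ivd-1* (log2 fold change 0.70 ± 0.16 SE, adjusted p = 0.00458) and *bcat-1* (0.96 ± 0.16, adjusted p = 9.76e-05). An exon of *cpz-2* shares 59 bases with *gcy-34* on the opposite strand.

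Of the cathepsin B-like genes, *cpr-6* had the highest level. Its FPKM was 947, 977, 992 and 1003 in wild-type, 867, 808, 693 and 838 in *ivd-1*, 1091, 1280.0, 1042 and 1119.5 in *bcat-1*, 1230.3, 1238, 1320.3 and 1247 in the double mutant and 639.9, 728, 804 and 771 in *hecd-1*. The levels of *ivd-1* and *hecd-1* were below all wild-type samples, and those of *bcat-1* and the double mutant above them. It was lower in *ivd-1* (log2 fold change -0.29 ± 0.07 SE, adjusted p = 0.00904) and *hecd-1* (-0.42 ± 0.07, adjusted p = 9.89e-04), and higher in the double mutant (0.36 ± 0.07, adjusted p = 0.00122). The smaller rise in *bcat-1* (0.21 ± 0.07, adjusted p = 0.0337) was lost under median-of-ratios scaling and in 5 fits without a sample.

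The gut-expressed cysteine protease *cpr-1* was at 154, 200.0, 107 and 163 FPKM in wild-type, 167, 218, 89.7 and 138 in *ivd-1*, 286, 349, 328 and 332 in *bcat-1*, 361, 456, 221 and 302 in the double mutant and 143, 173, 144 and 146 in *hecd-1*. The *bcat-1* and double-mutant samples lay above all others, and *ivd-1* spread around wild-type. It was higher in *bcat-1* (log2 fold change 1.08 ± 0.24 SE, adjusted p = 0.00124) and in the double mutant (1.08 ± 0.24, adjusted p = 0.00186), while in *ivd-1* it was at -0.06 ± 0.24 with an interval of -0.56 to 0.44.

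The cathepsin B-like *cpr-5* was low in the strains with *bcat-1(hh58)*. Its FPKM was 456, 441, 337 and 365 in wild-type, 505, 575, 548 and 494 in *ivd-1*, 139.9, 82.6, 178 and 142 in *bcat-1*, 91.1, 72.9, 61.4 and 84.1 in the double mutant and 300.2, 298, 261 and 305 in *hecd-1*. From *ivd-1* down through wild-type and *hecd-1* to *bcat-1* no strain overlapped the next, and the double mutant overlapped *bcat-1* at the bottom. It was 3.02-fold lower in *bcat-1* (log2 fold change -1.60 ± 0.17 SE, adjusted p = 1.43e-06) and 5.16-fold lower in the double mutant (-2.37 ± 0.17, adjusted p = 3.45e-08), the largest downward change of a protease against wild-type. In *ivd-1* it was at 0.42 ± 0.17 (adjusted p = 0.0927), and the double mutant was 6.88-fold lower than *ivd-1* (-2.78 ± 0.17, adjusted p = 5.85e-09).

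The nearest gene to *cpr-5* on chromosome V is *cpr-8* (WBcel235 1132598 to 1134036 on the minus strand and 1134602 to 1139182 on the plus strand, 566 bases apart). The FPKM of *cpr-8* was 16, 15.7, 19.9 and 19.3 in wild-type, 13.5, 15.3, 21.5 and 15.9 in *ivd-1*, 9.08, 9.61, 16.1 and 14.6 in *bcat-1*, 7.65, 6.85, 9.29 and 9.0 in the double mutant and 12.6, 13.4, 16.8 and 18.5 in *hecd-1*. The double mutant was below all wild-type samples, and *bcat-1* overlapped them. Its level was lower in the double mutant (log2 fold change -1.07 ± 0.18 SE, adjusted p = 2.47e-04), and in *bcat-1* (-0.54 ± 0.18, adjusted p = 0.0237) with a call that was lost in 4 fits without a sample and in a fit of these 2 strains alone.

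The gene *cpr-3* was low in level and differed among most strains. Its FPKM was 9.27, 5.77, 9.92 and 7.04 in wild-type, 19.8, 20.3, 31.1 and 22 in *ivd-1*, 22, 9.63, 31.3 and 18 in *bcat-1*, 9.08, 8.77, 10.8 and 11.9 in the double mutant and 3.85, 4.36, 4.02 and 3.27 in *hecd-1*. All *ivd-1* samples were above wild-type, all *hecd-1* samples below it, and *bcat-1* reached from the top of the wild-type range to the highest value of all. It was higher in *ivd-1* (log2 fold change 1.49 ± 0.26 SE, adjusted p = 4.95e-04) and in *bcat-1* (1.199 ± 0.26, adjusted p = 9.69e-04), lower in *hecd-1* (-0.93 ± 0.26, adjusted p = 0.0165), and 5.37-fold higher in *ivd-1* than in *hecd-1* (2.43 ± 0.26, adjusted p = 3.07e-06). The call in *hecd-1* was lost without wild-type replicate 3 or *hecd-1(tm2371)* replicate 4.

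The gene *cpr-4*, a secreted cathepsin B homolog known from irradiated worms, was at 293, 254, 292 and 282 FPKM in wild-type, 175, 175, 133 and 164 in *ivd-1*, 245, 137, 389 and 283 in *bcat-1*, 144, 106, 147 and 159 in the double mutant and 178, 161, 227 and 253 in *hecd-1*. The *ivd-1* and double-mutant samples lay below all wild-type samples, and *bcat-1* spread to both sides of them. It was lower in *ivd-1* (log2 fold change -0.80 ± 0.23 SE, adjusted p = 0.0180) and in the double mutant (-1.02 ± 0.23, adjusted p = 0.00207), the first call being lost without *ivd-1(tm6784)* replicate 3 (adjusted p = 0.0511).

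The last of the abundant ones, *cpr-9*, was at 676, 673, 829 and 681 FPKM in wild-type, 983, 1012, 1096 and 1040.2 in *ivd-1*, 752, 677, 783 and 755 in *bcat-1*, 835, 804, 675 and 689 in the double mutant and 433, 473, 629 and 502 in *hecd-1*. The *ivd-1* samples were above all others and the *hecd-1* samples below all others. The gene was higher in *ivd-1* (log2 fold change 0.54 ± 0.10 SE, adjusted p = 9.52e-04) and lower in *hecd-1* (-0.50 ± 0.10, adjusted p = 0.00236). The gene *cpr-2* was too low for the test: it was at 0.481, 0.158, 0.694 and 0.346 FPKM in *bcat-1*, at 0.0420 to 0.435 in the double mutant, and between 0 and 0.166 in the other 3 strains.

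The change made by *ivd-1(tm6784)* differed with and without *bcat-1(hh58)* for many of the proteases. The change in the *bcat-1* background (double mutant minus *bcat-1*) was compared with that in the wild-type background (*ivd-1* minus wild-type) in an interaction term, which uses different samples on each side. Of the 21, 13 passed, or 61.9%, where 47.4% of all genes did. Of these, 10 had a more negative change with *bcat-1(hh58)* and 3 a more positive one, where 35.3% and 12.2% of all genes did, and the median log2 difference was -0.42 against -0.19 over all genes. Median-of-ratios scaling gave 5 more positive and 9 more negative.

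The largest differences were those of *asp-12* (-3.01 ± 0.39, adjusted p = 3.77e-05) and *cpr-3* (-2.35 ± 0.36, adjusted p = 1.37e-04). Their log2 fold changes by *ivd-1(tm6784)* were 2.05 and 1.49 in the wild-type background and -0.96 and -0.85 in the *bcat-1* background. For *cpz-2*, *asp-3* and *asp-6*, also called higher in *ivd-1*, the differences were -1.35 ± 0.23, -0.72 ± 0.14 and -0.99 ± 0.16 (adjusted p = 2.72e-04, 8.52e-04 and 1.61e-04). In these 5 genes each single mutant exceeded wild-type, and the double mutant was called below *bcat-1*. These calls against *bcat-1* were all lost in a limma fit of the double mutant and *bcat-1* alone. Each was also lost in 3 to 6 fits without a sample, and only *asp-12* did not overlap *bcat-1* by sample.

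The 3 with a more positive change were *cpr-6* (0.45 ± 0.11, adjusted p = 0.00336), *cpl-1* (0.27 ± 0.08, adjusted p = 0.0136) and *cpz-1* (0.30 ± 0.12, adjusted p = 0.0453). The call of *cpz-1* was lost in 17 of 20 fits without a sample. Among the negative differences, that of *cpr-9* (-0.52 ± 0.14, adjusted p = 0.00761) shrank to -0.31 and lost its call under median-of-ratios scaling (adjusted p = 0.0892), and that of *asp-17* (-1.02 ± 0.33, adjusted p = 0.0206) lost its call under quantile normalization (-0.73, adjusted p = 0.0664). For *asp-4*, *asp-14* and *cpr-1*, which were higher in both strains with *bcat-1(hh58)*, the differences were 0.13, -0.20 and 0.07, with intervals of -0.11 to 0.36, -0.87 to 0.46 and -0.64 to 0.78.

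Other lists were counted in the same interaction term, in which 35.3% of all genes were more negative and 12.2% more positive. Of 12 intestinal markers, 10 had a more negative change with *bcat-1(hh58)* and none a more positive one, with a median log2 difference of -0.70 beside -0.42 for the proteases and -0.19 over all genes. The change was also more negative in 15 of 16 markers of epidermis and molting, all 10 of body wall muscle, 12 of 13 neuronal, 9 of 12 sperm, 8 of 10 pharyngeal and 2 of 3 coelomocyte markers. It was more positive in 14 of 17 germline and oocyte markers and 1 of 7 of the early embryo. Of the other lysosomal hydrolases 16 of 33 were more negative and 1 more positive (median -0.44). The part of these tissues in the protease values was not tested.

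**Figure D4:**
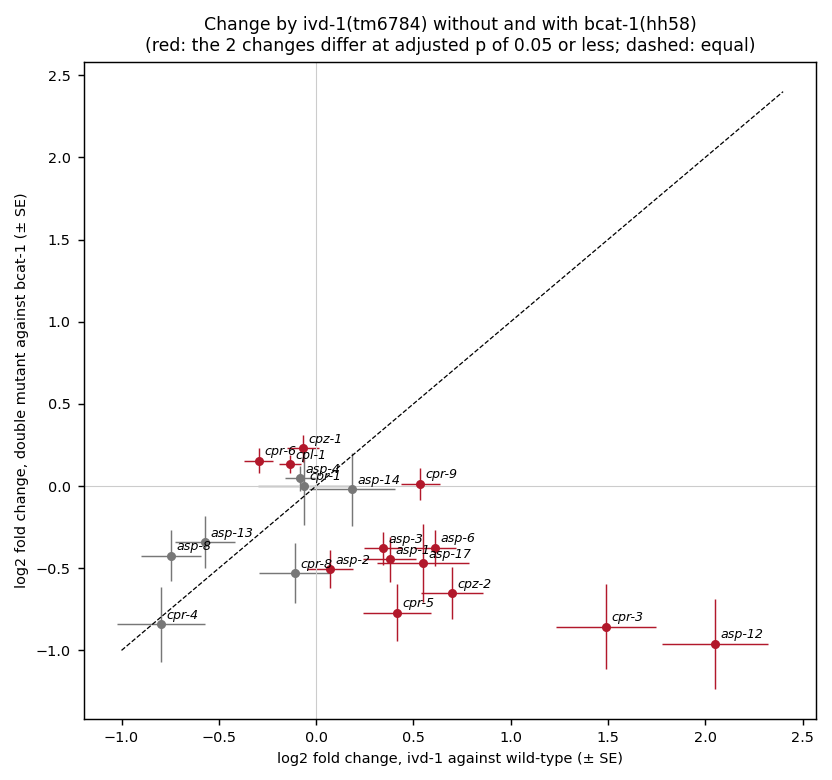
Log2 fold change by *ivd-1(tm6784)* without *bcat-1(hh58)* (x axis, *ivd-1* minus wild-type) and with it (y axis, double mutant minus *bcat-1*) for 20 proteases, with SE bars, the line of equal change dashed, and in red the 13 genes whose changes differed. The points of *asp-12* and *cpr-3* lie farthest to the lower right, at x values of 2.05 and 1.49.

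Ordered by mean level over the 5 strains, *hecd-1* was the lowest strain in 13 of the 20 proteases that could be ordered, the double mutant in 5, and *ivd-1* and wild-type in 1 each. The samples of the lowest strain were separate from those of the next only in *asp-8*, *asp-14*, *asp-17*, *cpl-1*, *cpr-3*, *cpr-9* and *cpz-2*, with *hecd-1* lowest in each. This order was not counted over all genes. The highest strain was *ivd-1* in 7, the double mutant in 5, *bcat-1* in 4, wild-type in 3 and *hecd-1* in 1. In *asp-4*, *asp-14*, *cpr-1*, *cpr-6* and *cpz-1* the *bcat-1* and double-mutant samples overlapped each other and were separate from the next strain in the order. By position, 17 of the 23 proteases lie on chromosome V, 4 on X (*asp-3*, *asp-4*, *asp-14* and *cpr-6*), and 1 each on I and IV.

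The other lysosomal genes were counted from lists of the pathway. Of 33 other lysosomal hydrolases, 13 were higher and 0 lower than wild-type in *ivd-1*, 21 and 0 in *bcat-1*, 14 and 4 in the double mutant, and 0 and 13 in *hecd-1*. The median log2 fold changes were 0.23, 0.39, 0.29 and -0.30, beside 0.11, 0.17, 0.10 and 0.08 over all genes, of which 19.9%, 33.9%, 26.4% and 14.0% were called higher and 2.88%, 10.3%, 11.9% and 7.15% lower. The largest called change was that of *asm-3*, an acid sphingomyelinase, in *bcat-1* (log2 fold change 2.46 ± 0.53 SE, adjusted p = 9.58e-04) and the double mutant (3.38 ± 0.53, adjusted p = 1.06e-04). In *hecd-1* it was the drop of *aagr-1*, an acid alpha-glucosidase relative (-1.27 ± 0.16, adjusted p = 4.05e-05), and in *ivd-1* the rise of *gba-2*, a glucocerebrosidase relative (1.01 ± 0.18, adjusted p = 6.90e-04).

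Of 21 genes of the vacuolar proton pump, which acidifies the lysosome, 3 were higher and 0 lower in *ivd-1*, 6 and 1 in *bcat-1*, 0 and 4 in the double mutant, and 1 and 10 in *hecd-1*. The shares called higher (14.3%, 28.6%, 0% and 4.8%) were below those of all genes in each strain, the shares called lower in the double mutant (19%) and *hecd-1* (47.6%) were above them, and the median log2 fold changes were 0.12, 0.08, -0.07 and -0.13. The called changes were small, the largest against wild-type being the drop of *vha-3* in *hecd-1* (log2 fold change -0.32 ± 0.08 SE, adjusted p = 0.0113). Of the 21, *vha-5* and *vha-13* are listed at 0 in some samples and stay in these counts and medians. Of 11 lysosomal membrane proteins, 3 were higher in *ivd-1*, 5 in *bcat-1*, 4 in the double mutant and 1 in *hecd-1*, and none lower, or 27.3%, 45.5%, 36.4% and 9.1% higher (median log2 fold changes 0.14, 0.15, 0.23 and 0.04), led in the first 3 by *cln-3.3*, a relative of the Batten disease gene, with 0.86, 0.95 and 0.85.

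The cystatins inhibit cathepsins of the cysteine class. Of both members, *cpi-2* was higher in *bcat-1* (log2 fold change 0.32 ± 0.04 SE, adjusted p = 6.43e-06) and both passed in the double mutant, where *cpi-2* was at 0.34 ± 0.04. Of 7 transcription factors of the lysosome and intestine (2 of them also among the intestinal markers), 2 were higher in *ivd-1*, 4 in *bcat-1*, 4 in the double mutant and 2 in *hecd-1*, and 1 was lower in each of the last 2, or 28.6%, 57.1%, 57.1% and 28.6% higher, with median log2 fold changes of 0.19, 0.43, 0.16 and 0.07. The largest called change was that of *pqm-1*, a zinc finger factor, with 1.14 in *ivd-1*, 1.57 in *bcat-1* and 1.01 in the double mutant. Of 9 calpains tested, which are cytosolic cysteine proteases, 1 was higher and 1 lower in *ivd-1*, 2 and 1 in *bcat-1*, 2 and 2 in the double mutant, and 2 and 0 in *hecd-1* (11.1%, 22.2%, 22.2% and 22.2% higher, median log2 fold changes 0.16, -0.05, 0.02 and 0.11), led there by *tra-3* (1.05 ± 0.09, adjusted p = 9.73e-07).

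Markers of whole tissues were counted beside the proteases. Of all genes, 19.9%, 33.9%, 26.4% and 14.0% were called higher in *ivd-1*, *bcat-1*, the double mutant and *hecd-1*. In that order 2.88%, 10.3%, 11.9% and 7.15% were called lower. Of 12 intestinal markers, 5 were higher and 0 lower in *ivd-1*, 7 and 0 in *bcat-1*, 4 and 3 in the double mutant, and 0 and 5 in *hecd-1*. These are 41.7%, 58.3%, 33.3% and 0% higher, and 0%, 0%, 25% and 41.7% lower. Their summed FPKM was 1191 to 1422 in wild-type, 1494 to 1855 in *ivd-1*, 1202 to 1636 in *bcat-1*, 849.6 to 1297 in the double mutant and 799 to 965 in *hecd-1*. Of 16 markers of epidermis and molting, 15 were higher in *ivd-1*, 15 in *bcat-1* (with 1 lower), 14 in the double mutant and 1 in *hecd-1*. These are 93.8%, 93.8%, 87.5% and 6.2% higher, with median log2 fold changes of 2.12, 3.26, 1.76 and 0.46. Their summed FPKM, set by the few most abundant, was 2184 to 2432, 2524 to 2664, 1862 to 2485, 1339 to 2436 and 2028 to 2311 in the same order. Of 17 germline and oocyte markers, 8 were lower in *ivd-1*, 7 in *bcat-1*, 5 in the double mutant (with 1 higher) and 1 in *hecd-1* (with 10 higher). These are 47.1%, 41.2%, 29.4% and 5.9% lower, with 5.9% higher in the double mutant and 58.8% in *hecd-1*. Their summed FPKM was 3471 to 3677, 2829 to 3214, 2622 to 3442, 3168 to 3903 and 3572 to 4408. Of 13 neuronal markers, 10 were higher in *ivd-1*, 11 in *bcat-1*, 4 in the double mutant and 2 in *hecd-1*, and none lower. These are 76.9%, 84.6%, 30.8% and 15.4% higher, with a summed FPKM of 269.6 to 293, 319 to 326, 337 to 376, 323 to 332 and 296 to 319.6.

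The other 5 marker lists were counted in the same way. Of 12 sperm markers, 0 were called in *ivd-1*, 1 was lower in *bcat-1* (8.3%), 5 were lower in the double mutant (41.7%) and 1 was higher in *hecd-1* (8.3%), with a summed FPKM of 134 to 212, 188 to 303, 71.9 to 211, 37.3 to 88.1 and 84.3 to 195 from wild-type to *hecd-1*. Of 10 markers of body wall muscle, 0 were called in *ivd-1*, 1 was higher in *bcat-1* (10%), and 3 were lower in each of the other 2 mutants (30%), with sums of 5813 to 6326, 6759 to 7941, 5334 to 6786, 4117 to 5936 and 4668 to 5498. Of 10 pharyngeal markers, 4 were higher in each of *ivd-1* and *bcat-1* (40%), 3 were higher (30%) and 4 lower (40%) in the double mutant and 0 were called in *hecd-1*, with sums of 212 to 249, 284 to 363, 177 to 296, 121 to 210.4 and 159.7 to 243. Of 7 early-embryo markers tested, 0 were called in *ivd-1*, and 2, 4 and 1 (28.6%, 57.1% and 14.3%) were higher in *bcat-1*, the double mutant and *hecd-1*, with sums of 101 to 116, 83.5 to 107, 90 to 135, 122.2 to 154 and 119 to 148 over all 8 listed. Of 3 coelomocyte markers, 2 were higher in each of *ivd-1* and *bcat-1* (66.7%) and 0 were called in the other 2, with sums of 11.9 to 13.1, 14.7 to 17.3, 12.1 to 15.8, 11.5 to 13.3 and 8.79 to 11.6. No marker of the 9 lists was at 0 in all 20 samples, and *rme-2*, *him-3*, *dpy-3* and *phat-1* are listed at 0 in some samples. The part of these tissues in the protease changes was not tested. In whole worms fewer cells of a type and less RNA per cell cannot be told apart.

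**Figure D5:**
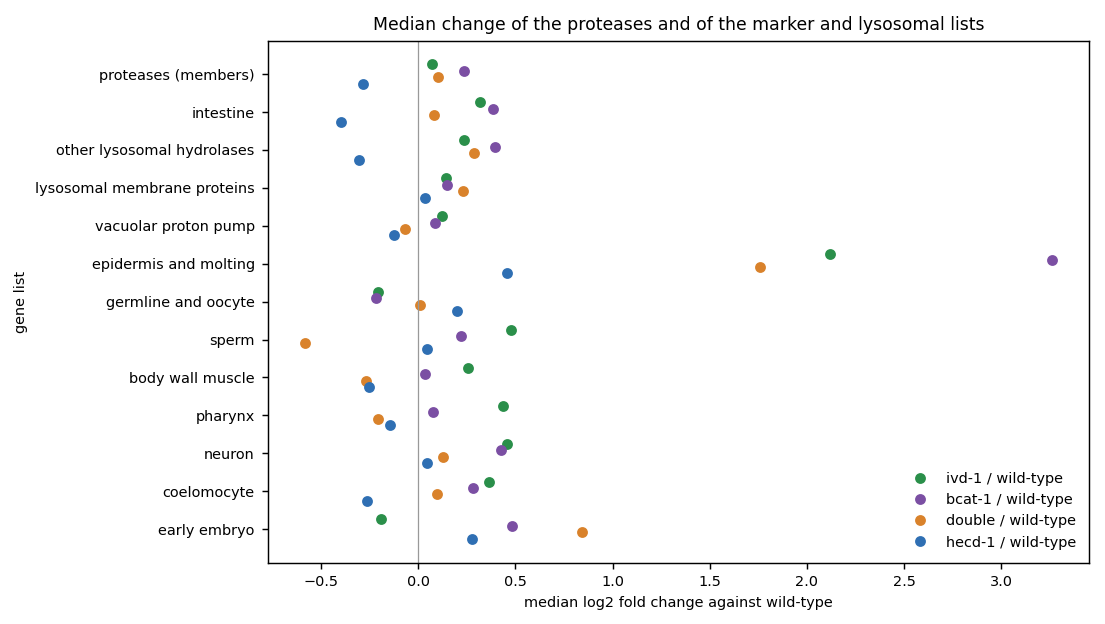
Median log2 fold change against wild-type (x axis) of the 21 tested proteases and of 12 marker and lysosomal gene lists (rows), with a point for each of 4 comparisons, all of which share the wild-type samples. The epidermis and molting list stands apart at 2.12, 3.26 and 1.76. In *hecd-1* the proteases, intestinal markers and other lysosomal hydrolases lie below 0. So do the proton pump, body wall muscle, pharynx and coelomocyte lists in *hecd-1*, at -0.13, -0.25, -0.15 and -0.27.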

How the data were processed

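Worms of 5 strains (4 replicates each, collected in independent experiments by the study's account) were sequenced in paired ends from stranded libraries of poly-A RNA. The authors aligned the reads with Tophat2 and deposited FPKM per gene made with Cufflinks2 on an Ensembl annotation, while the genome build and the use of strand in counting are not given in the sources used here. The submitters' processing notes also name CASAVA. The titles of the samples matched the 20 value columns. FPKM are not counts, so values were taken as log2(FPKM + 0.5) and fitted with limma 3.58.1 in R 4.3.3 (lmFit, contrasts.fit, eBayes with trend, strain as the only term, two-sided) over 15957 genes and 8 comparisons. Adjustment was over all tested genes, and intervals are at 95%.

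Ensembl release 115 (WBcel235) gave gene symbols and coordinates and matched 43325 of the 46284 gene IDs. The members and lists were chosen with earlier results of these data known. Values in every sample are given for *asp-1*, *asp-3*, *asp-4*, *cpl-1*, *cpz-1*, *cpr-1*, *cpr-6*, the 3 most abundant asp and cpr genes, and up to 4 called members per direction and comparison with the largest change, those with 1 direction in all 4 same-numbered pairs and a mean of at least 1 FPKM in either strain. From the other lists, values are given for the called gene with the largest change. Values of *asp-5* and *cpr-2* in every sample are exceptions chosen after seeing them. Lists of 9 cell types and 6 pathway groups were counted.

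As alternatives the pseudocount was set to 0.1 or 1, low genes were all kept or dropped below a mean FPKM of 1, values were scaled by quantiles or by median-of-ratios, the fit was limited to the strains in a comparison, replicate numbers entered as a block, and each of 20 samples was left out. Zeros as missing, for genes with 0 in some samples and at least 10 FPKM in others, was added after seeing the data. The fit was tested on simulated data. Read sharing between similar proteases was not checked. Tables were read with Python 3.11.15 and pandas 2.3.3 and plots drawn with matplotlib 3.10.9. The proteome and metabolome of the study were not analysed here.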

Additional observations from a re-analysis of the deposited data

Results flagged for a closer look

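The change by *ivd-1(tm6784)* differed with and without *bcat-1(hh58)* in 13 proteases by the interaction term, or 61.9%, where 47.4% of all genes did (35.3% more negative and 12.2% more positive). The log2 differences, with *bcat-1(hh58)* minus without, were -3.01 for *asp-12*, -2.35 for *cpr-3*, -1.35 for *cpz-2*, -1.19 for *cpr-5*, -1.02 for *asp-17*, -0.99 for *asp-6*, -0.82 for *asp-1*, -0.72 for *asp-3*, -0.58 for *asp-2* and -0.52 for *cpr-9*, and the calls of *asp-17* and *cpr-9* were each lost under 1 scaling. They were 0.45 for *cpr-6*, 0.30 for *cpz-1* and 0.27 for *cpl-1*. Of 17 germline markers 14 had a more positive difference, while it was more negative in 10 of 12 intestinal, 15 of 16 epidermis and molting, 10 of 10 body wall muscle, 12 of 13 neuronal and 9 of 12 sperm markers, and their part in these values was not tested.

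In 6 groups of 4 samples 1 sample stood far from the other 3 by Dixon's test, of 135 groups tested, and chance flags about 1 in 20 groups. The sample was at 829 FPKM for *cpr-9* in wild-type replicate 3 (others 673 to 681), at 173 for *cpr-1* in *hecd-1(tm2371)* replicate 2 (others 143 to 146) and at 261 for *cpr-5* in *hecd-1(tm2371)* replicate 3 (others 298 to 305). For *asp-5* it was the *ivd-1(tm6784)* replicate 3 at 627, with the others listed at 0. In wild-type replicate 4 the low genes *asp-9* and *cpr-2* were at 0.0942 (others 0.0321 to 0.0347) and 0.0378 (others at 0).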

How the results depend on the processing

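Of 95 protease calls over the 8 comparisons, 67 held in all 9 alternatives that keep every sample and all 20 fits without a sample, 24 were lost in at least 1 of the former and 24 in at least 1 of the latter. The call that *asp-5* was lower in *ivd-1* than in *hecd-1* turned to 0.497 with zeros as missing, and the higher *cpl-1* in the same comparison to -0.0050 under quantile normalization.

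Leaving out 1 sample at a time gave 9 to 12 called proteases in *ivd-1* against wild-type, 10 to 13 in *bcat-1*, 11 to 13 in the double mutant, 5 to 13 in *hecd-1*, 12 to 16 between *ivd-1* and *hecd-1*, 13 to 15 between the double mutant and *ivd-1*, 0 to 15 between the double mutant and *bcat-1*, and 12 to 13 for the interaction. The count of 10 between the double mutant and *bcat-1* was 0 in a limma fit of these strains alone (12 of 21 at an unadjusted p under 0.05, and 7 of all genes called) and 0, 3 or 4 without *bcat-1(hh58)* replicate 3, 1 or 4, and 0 or 5 without double-mutant replicate 3 or 4. Without *bcat-1(hh58)* replicate 2 the count rose to 15, with 48.4% of all genes called against 23.4% in the main fit. All fits without a sample hold 19 samples. The cause of these differences was not tested.

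Quantile normalization moved the median of all genes by -0.29 in *ivd-1*, -0.42 in *bcat-1* and -0.17 in the double mutant against wild-type, by -0.26 between *ivd-1* and *hecd-1*, by 0.11 and 0.22 in the double mutant against *ivd-1* and *bcat-1*, and by 0.52 in the interaction. Median-of-ratios scaling moved it by -0.10, -0.18 and 0.20 in *ivd-1*, *bcat-1* and the interaction.

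Same-numbered samples did not deviate together in every pair: the correlation ran from -0.226 to 0.096 for *bcat-1* and wild-type and from 0.084 to 0.301 for *hecd-1* and wild-type, was above 0.1 in all 4 pairs in 0 of 7 comparisons, and samples correlated best with their own number in 30 of 80 cases. With the replicate number as a block, the counts were 10 in *ivd-1*, 13 in *bcat-1*, 12 in the double mutant and 9 in *hecd-1* against wild-type, 14 between *ivd-1* and *hecd-1*, 14 and 13 for the double mutant against *ivd-1* and *bcat-1*, and 14 for the interaction.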
